A study of Rattus norvegicus with 36 samples.

Results

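The genes described here encode liver dehydrogenases, reductases, esterases and epoxide hydrolases. Members were the probe sets that named 1 gene and whose platform symbol began with Aldh, Adh and a digit, Akr, Ces and a digit, or Ephx, with Aldh3a1 left out. This gave 55 probe sets for 44 genes, out of 31042 probe sets tested. The Aldh family had 19 probe sets for 16 genes, Akr 20 for 15, Adh 6 for 5, Ces 6 for 5 and Ephx 4 for 3. A further 2 probe sets that named several genes, at least 1 of them of these families, were left out.

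The series measured liver RNA from male Sprague Dawley (Harlan) rats given decabromodiphenylethane (DBDPE), a brominated flame retardant, on Affymetrix 3′ IVT arrays. The rats were 7 weeks old at the start, ate NTP-2000 diet, and were gavaged in corn oil (5 ml/kg) on each of 5 days, and the left liver lobe was taken 1 day after the last dose. The 6 groups of 6 samples received corn oil alone (vehicle, 0 mg/kg), a low dose of 0.1 or 0.97 mg/kg, a middle dose of 9.71 mg/kg, or a high dose of 97.1 or 970 mg/kg each day. Labels give samples a number but no animal, so each was taken as its own rat, and p-values measure the spread between these samples. In whole liver, fewer cells of a type and less RNA per cell cannot be told apart.

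Alcohol dehydrogenases (Adh) oxidise alcohols and retinol to aldehydes, and aldehyde dehydrogenases (Aldh) oxidise aldehydes to acids. Aldo-keto reductases (Akr) work in the other direction, reducing aldehydes, sugars, steroids and bile acid intermediates. Carboxylesterases (Ces) cleave ester and amide drugs and stored lipid, and epoxide hydrolases (Ephx) add water to epoxides. Many of these enzymes are abundant in hepatocytes, and some are known targets of the xenobiotic receptors CAR and PXR, of the stress factor Nrf2 or of PPAR alpha.

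The 36 arrays resembled each other closely, with pairwise r of 0.993 to 0.997 and array medians of 5.07 to 5.12 on the log2 scale. Their summed hepatocyte markers, as a mean log2 level of 5 genes, spanned 13.93 to 14.01 at 970 mg/kg and 13.94 to 14.03 in vehicle. The score of 2 neutrophil markers spanned 4.69 to 7.13 at 970 mg/kg and 4.89 to 5.42 in vehicle, and its part in the results was not tested. Of the members, 44 of the 55 probe sets lay above the array median on all 36 arrays. Another 9 lay below it on all arrays (Adh6a, both of Akr1b10, Akr1b8, 1 of 3 for Aldh5a1, 1 of 2 for Ces1c, Ces5a and both of Ephx4), and Akr1b1 and Akr1b7 had 1 probe set each that was mixed. Cyp1a1, a cytochrome P450 that the aryl hydrocarbon receptor is known to induce, averaged 10.81 ± 0.63 at 970 mg/kg and 4.57 ± 0.15 in vehicle (log2, SD, n = 6 each; limma adjusted p = 9.19e-18). The 3′ minus 5′ difference of the beta-actin controls, a sign of RNA integrity, was 1.19 ± 0.08 at 970 mg/kg and 1.12 ± 0.07 in vehicle (log2, SD, n = 6 each). With that difference as a covariate in limma, the count of members called was 0 at every dose, and the median log2 fold change of members at 970 mg/kg was -0.0004.

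Promoters are shown for the 3 marker genes, searched only for core strings of the aryl hydrocarbon receptor and Nrf2 sites. Sites for CAR and PXR, and sites farther from the gene start, were not searched for. RefSeq (build GRCr8) supplied a window of 250 bases before to 50 after the gene start for 36 of the 44 genes. Ephx1 encodes microsomal epoxide hydrolase, Ces2c a drug-cleaving carboxylesterase, and Aldh1a1 a cytosolic enzyme that oxidises retinal and acetaldehyde. The windows are at chr13:95275803-95276102, minus strand for Ephx1, chr1:270376951-270377250, plus strand for Ces2c and chr1:227537370-227537669, plus strand for Aldh1a1. Both strands were searched for GCGTG, the core of the site the aryl hydrocarbon receptor binds, and for TGACNNNGC, the core of the antioxidant response element bound by Nrf2; neither string is in these 3 windows, so nothing is in capitals.
Ephx1: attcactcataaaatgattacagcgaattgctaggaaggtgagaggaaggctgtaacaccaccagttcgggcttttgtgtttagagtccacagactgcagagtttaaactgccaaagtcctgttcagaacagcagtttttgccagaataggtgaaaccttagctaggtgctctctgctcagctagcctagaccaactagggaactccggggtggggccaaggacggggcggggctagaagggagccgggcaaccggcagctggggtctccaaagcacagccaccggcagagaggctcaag
Ces2c: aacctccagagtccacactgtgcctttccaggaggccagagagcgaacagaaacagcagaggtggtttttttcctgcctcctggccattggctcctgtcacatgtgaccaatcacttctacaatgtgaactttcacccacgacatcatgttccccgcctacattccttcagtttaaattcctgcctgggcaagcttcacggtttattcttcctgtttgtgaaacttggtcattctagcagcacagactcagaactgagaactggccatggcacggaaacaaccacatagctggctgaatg
Aldh1a1: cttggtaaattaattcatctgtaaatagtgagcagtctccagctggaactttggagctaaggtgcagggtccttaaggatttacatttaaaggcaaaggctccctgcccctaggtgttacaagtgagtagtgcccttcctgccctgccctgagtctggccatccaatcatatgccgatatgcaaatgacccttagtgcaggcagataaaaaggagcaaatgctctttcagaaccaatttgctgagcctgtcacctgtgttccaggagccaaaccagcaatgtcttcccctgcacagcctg

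GCGTG was in 12 of the 36 member windows (33.3%), against 8540 of all 27457 windows of that length (31.1%). TGACNNNGC was in 4 of 36 (11.1%), against 3342 of 27457 (12.2%). The windows of the 3 members with an unadjusted p under 0.05 in the F test over the 5 doses did hold a match, in capitals. They are at chr8:80758391-80758690, plus strand for Aldh1a2, chr5:156876471-156876770, plus strand for Akr7a3 and chr19:30046244-30046543, plus strand for Ces1d. GCGTG began 177 bases before the start of Aldh1a2, with TGACCGTGC 161 bases before it, 57 before that of Akr7a3 and 135 before that of Ces1d. A match is a string in a window and not a measured binding site. The 3 genes were picked by p from these same data, and their lowest adjusted p in limma's F test was 0.996. Windows of members without such a p, Adh5 and Adh7 among them, held GCGTG too.
Aldh1a2: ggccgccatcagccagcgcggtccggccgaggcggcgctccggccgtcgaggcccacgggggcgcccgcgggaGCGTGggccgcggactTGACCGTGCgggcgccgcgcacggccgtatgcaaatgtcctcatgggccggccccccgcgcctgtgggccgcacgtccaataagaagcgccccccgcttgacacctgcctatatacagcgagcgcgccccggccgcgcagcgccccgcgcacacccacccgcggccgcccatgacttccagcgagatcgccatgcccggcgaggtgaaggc
Akr7a3: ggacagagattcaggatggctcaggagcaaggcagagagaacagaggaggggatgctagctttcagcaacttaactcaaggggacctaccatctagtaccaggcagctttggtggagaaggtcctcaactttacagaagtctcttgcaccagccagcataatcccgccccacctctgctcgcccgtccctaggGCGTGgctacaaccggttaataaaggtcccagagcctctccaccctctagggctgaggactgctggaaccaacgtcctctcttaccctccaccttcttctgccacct
Ces1d: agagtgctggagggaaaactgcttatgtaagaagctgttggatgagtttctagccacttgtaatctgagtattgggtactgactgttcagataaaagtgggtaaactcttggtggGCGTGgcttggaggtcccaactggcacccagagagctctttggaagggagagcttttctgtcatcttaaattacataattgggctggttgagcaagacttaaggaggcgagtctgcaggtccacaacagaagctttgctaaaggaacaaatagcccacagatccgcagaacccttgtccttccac

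At 970 mg/kg, no member differed from vehicle past an adjusted p of 0.05 in limma, and the lowest adjusted p was 0.966. Among all probe sets, 0.00644% passed at that dose, namely Cyp1a1 and Cyp1a2. At an unadjusted p under 0.05, 1 member passed at 970 mg/kg, against 4.87% of all probe sets. Members' log2 fold changes had a median of 0.007, against -0.004 over all probe sets, and spanned -0.27 (Aldh18a1, which makes a proline precursor) to 0.47 (Ephx2). In all, 32 of 55 lay above 0, against 48.1% of all probe sets. The 95% intervals bounded these changes: those of 50 of the 55 members stayed within 1.5-fold of vehicle and those of 54 within 2-fold. Over all probe sets the share within 1.5-fold was higher, at 97.8%. The 5 that reached beyond 1.5-fold were Adh4, Akr1b7, Akr1c1, Aldh18a1 and Ephx2.

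**Figure D1:**
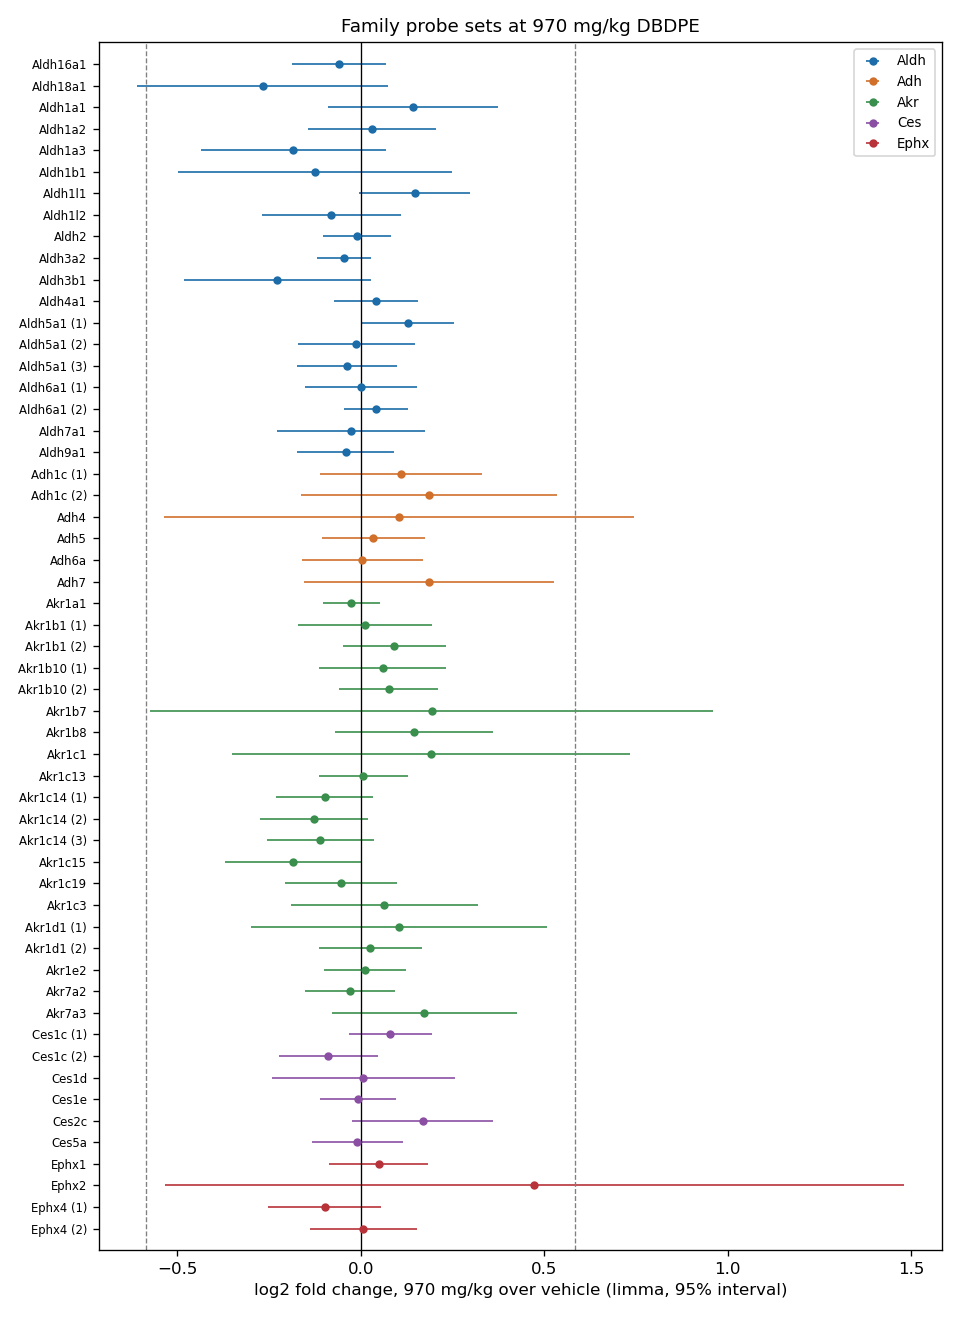
Log2 fold change at 970 mg/kg over vehicle for each of the 55 member probe sets, with 95% limma intervals (n = 6 each), coloured by family. Numbers in brackets tell apart probe sets of a gene, and dashed lines mark 1.5-fold either way. Ephx2 has the widest interval, and the intervals of 50 members stay between the dashed lines.

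The lower doses gave the same count. No member passed limma's adjusted threshold at any of the 4 doses from 0.1 to 97.1 mg/kg, and the share of all probe sets that did was 0% at the 3 lower of these and 0.00644% at 97.1 mg/kg. The members' lowest adjusted p was 0.999 at 0.1 mg/kg, 0.985 at 0.97 mg/kg, 0.967 at 9.71 mg/kg and 0.900 at 97.1 mg/kg. At an unadjusted p under 0.05 there were 4 members at 0.1 mg/kg (against 4.46% of all probe sets), 0 at 0.97 mg/kg (4.92%), 3 at 9.71 mg/kg (5.06%) and 3 at 97.1 mg/kg (5.42%). No member had all 6 animals of a dose above, or all 6 below, every vehicle animal. Over all probe sets the shares above and below were 0.0805% and 0.058% at 0.1 mg/kg, 0.129% and 0.106% at 0.97, 0.0709% and 0.11% at 9.71, 0.0548% and 0.0966% at 97.1, and 0.116% and 0.0838% at 970 mg/kg. A slope over dose steps (0 for vehicle to 5 for 970 mg/kg) called 0 members by limma, with 4 at an unadjusted p under 0.05, against 0.00644% and 5.7% of all probe sets. The F test over the 5 doses called 0, with 3 unadjusted, against 0.00644% and 4.18%.

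By family at 970 mg/kg, the median log2 fold change was 0.11 for Adh, with 6 of 6 probe sets above 0, and 0.02 for Akr, with 13 of 20 above 0. Aldh had a median of -0.03 with 7 of 19 above 0, Ces -0.0006 with 3 of 6, and Ephx 0.03 with 3 of 4. Across the lower doses, 2 of 6 Adh probe sets were above 0 at 0.1 mg/kg, 0 at 0.97 mg/kg (median -0.11), 6 at 9.71 mg/kg (median 0.06) and 4 at 97.1 mg/kg. For the slope over dose steps, 6 of 6 were above 0. Over all probe sets, 48.1% to 50.5% were above 0 at the 5 doses and 48.8% for the slope. Of the 6 Adh probe sets 2 are of Adh1c, and Adh1c, Adh4 and Adh7 deviated together between livers. Members of a family or list share the same livers, so such counts are not of independent units. Some lists went by the receptor or factor known to control the genes. The 4 measured of 6 listed CAR and PXR targets (Aldh1a1, Akr1b7, Ces2c, Ephx1) were all above 0 at 970 mg/kg with a median of 0.16. At 97.1 mg/kg 2 of 4 were, with a median of -0.006. These targets had 3 of 4 above 0 at 9.71 mg/kg (median 0.04), 2 of 4 at 0.97 mg/kg (-0.01) and 3 of 4 at 0.1 mg/kg (0.04). Akr1b7, which lay above the array median on 2 of 36 arrays, had 0.19 at 970 mg/kg and -0.10 without replicate 3 of that dose. The Nrf2 targets (Akr1b8, Akr7a3, Ces1d, Ephx1) had 2 of 4 above 0 at 0.1 mg/kg (median -0.004) and 2 of 4 at 0.97 mg/kg (-0.02). They had 1 of 4 and a median of -0.20 at 9.71 mg/kg. The counts and medians were 3 of 4 and 0.08 at 97.1 mg/kg, and 4 of 4 and 0.10 at 970 mg/kg. Ces1d, at 0.007 at 970 mg/kg, turned negative with 5 of the 36 samples left out in turn, to -0.04 at the lowest. The PPAR alpha targets (Aldh3a2, Aldh9a1, Ephx2) had 1 of 3 above 0 at 970 mg/kg, with a median of -0.04. By pathway at 970 mg/kg, 4 of the 6 alcohol-to-acetate enzymes were above 0 with a median of 0.11. Of the bile acid and steroid reductases 2 of 4 listed were measured, with 1 above 0 and a median of -0.05, and of the 2 aldehyde and glucose reductases 1 was above 0, with a median of -0.007. None of the members of these lists passed limma's adjusted threshold at any dose.

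The markers overlapped vehicle at every dose. Ephx1 had a lowest, median and highest log2 level of 12.72, 12.75 and 12.96 at 970 mg/kg, and 12.68, 12.72 and 12.81 in vehicle. Its log2 fold change was 0.05 (95% interval -0.09 to 0.18). Ces2c had 7.28, 7.42 and 7.60 at 970 mg/kg, and 6.90, 7.29 and 7.68 in vehicle. All 6 dosed livers lay inside the vehicle range, and the log2 fold change was 0.17 (-0.02 to 0.36). Aldh1a1 had 11.52, 11.97 and 12.07 at 970 mg/kg, and 11.38, 11.77 and 12.09 in vehicle, again inside the vehicle range, with a log2 fold change of 0.14 (-0.09 to 0.37). With 1 sample left out, the value of Ephx1 was as low as 0.01 (without replicate 2 of 970 mg/kg), that of Ces2c 0.10 (without vehicle replicate 6) and that of Aldh1a1 0.06 (without vehicle replicate 5). In two-sided exact permutation tests, p was 0.303 for Ephx1, 0.210 for Ces2c and 0.318 for Aldh1a1, and 0.939 for each after adjustment over the 15 marker tests. At 9.71 mg/kg, Ephx1 averaged 12.61 ± 0.09, against 12.73 ± 0.05 in vehicle (SD, n = 6 each), and 5 of 6 livers lay below every vehicle liver. That exact permutation p was 0.0173, and 0.260 after adjustment. In limma the log2 fold change of Ephx1 at 9.71 mg/kg was -0.12 (-0.26 to 0.01). Its limma p was 0.0697 unadjusted and 0.978 adjusted.

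**Figure D2:**
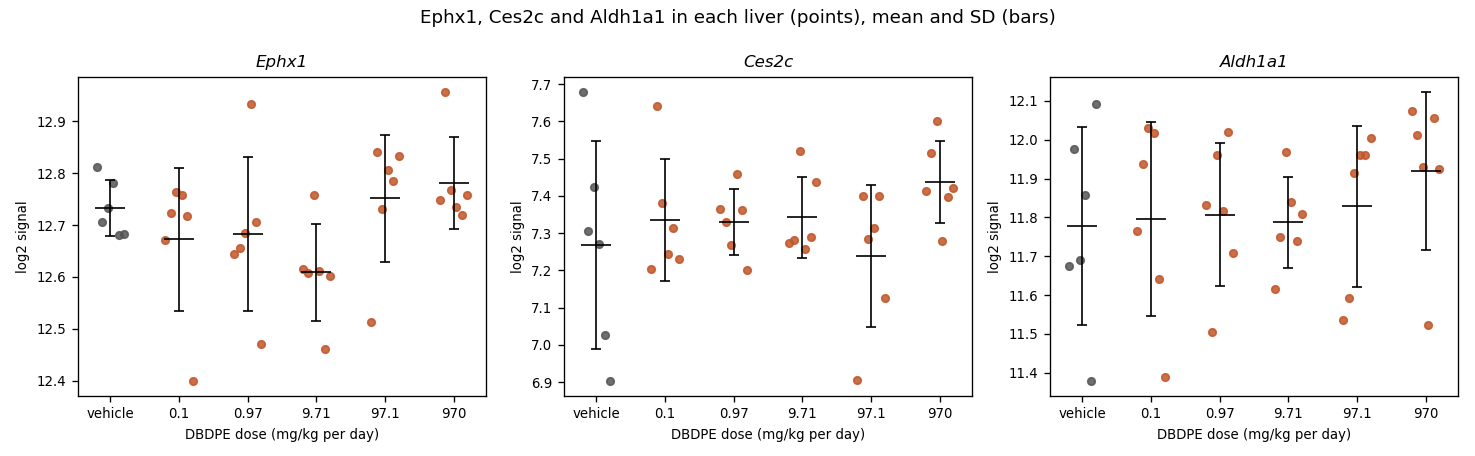
Log2 signal of Ephx1, Ces2c and Aldh1a1 in every liver by DBDPE dose, with vehicle at the left; bars are the mean and SD (n = 6). Doses overlap vehicle for all 3 genes, and Ephx1 at 9.71 mg/kg sits lowest at 12.61.

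In the steps from alcohol to acid, log2 fold changes at 970 mg/kg ran from -0.13 (Aldh1b1) to 0.19 (Adh7). Adh1c, the class I enzyme that handles ethanol, averaged 13.09 ± 0.21 at 970 mg/kg and 12.98 ± 0.19 in vehicle (SD, n = 6 each), a log2 fold change of 0.11 (-0.11 to 0.33). Aldh2, the mitochondrial acetaldehyde dehydrogenase, averaged 12.16 ± 0.07 at 970 mg/kg and 12.17 ± 0.08 in vehicle, a log2 fold change of -0.01 with the narrow interval of -0.10 to 0.08. Adh4, a class II enzyme, had 6.80, 7.34 and 7.93 at 970 mg/kg and 6.58, 7.17 and 7.79 in vehicle, a log2 fold change of 0.10 with the wide interval of -0.54 to 0.74. Adh5, which oxidises glutathione-bound formaldehyde, had 10.34, 10.58 and 10.62 at 970 mg/kg and 10.35, 10.44 and 10.71 in vehicle, a log2 fold change of 0.03 (-0.11 to 0.18). Adh7 had 5.61, 5.99 and 6.42 at 970 mg/kg and 5.33, 5.76 and 6.27 in vehicle, with 1 dosed liver above the vehicle range and a log2 fold change of 0.19 (-0.16 to 0.53). At 97.1 mg/kg Aldh1b1, also a mitochondrial acetaldehyde enzyme, had 7.50, 7.82 and 8.48 as lowest, median and highest, against 7.87, 8.35 and 8.64 in vehicle. Its log2 fold change there was -0.45 (-0.82 to -0.07; limma adjusted p = 0.900), with 3 of 6 livers below every vehicle liver. Aldh1b1 was below 0 at all 5 doses, with -0.26 at 0.1 mg/kg, -0.36 at 0.97, -0.13 at 9.71 and -0.13 (-0.50 to 0.25) at 970 mg/kg. Without replicate 6 of 970 mg/kg the last value was -0.02. Each dose was set against the same 6 vehicle livers, so the 5 signs are not separate results. The F test over the 5 doses gave Aldh1b1 an unadjusted p of 0.173.

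Other aldehyde dehydrogenases act on amino acid, lipid and folate intermediates. Aldh6a1, of valine breakdown, had a log2 fold change of 0.04 (-0.05 to 0.13) at 970 mg/kg, and Aldh3a2, the fatty aldehyde dehydrogenase, had -0.04 (-0.12 to 0.03). Aldh7a1, of lysine breakdown, had -0.03 (-0.23 to 0.18) and Aldh9a1, of carnitine synthesis, -0.04 (-0.17 to 0.09). Aldh1l1, a folate enzyme, had 11.29, 11.36 and 11.56 at 970 mg/kg and 11.11, 11.21 and 11.46 in vehicle, a log2 fold change of 0.15 (limma adjusted p = 0.966). For Aldh5a1, which oxidises succinic semialdehyde, the probe sets differed: 1 gave 0.13 at 970 mg/kg, the only member at an unadjusted p under 0.05 there, and the other 2 gave -0.01 and -0.04.

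The reductases gave values of both signs, from -0.18 (Akr1c15) to 0.19 (Akr1b7) at 970 mg/kg and from -0.27 (Akr7a3) to 0.81 (Akr1b7) at 9.71 mg/kg. Akr1a1, an aldehyde reductase, had a log2 fold change of -0.03 (-0.10 to 0.05) at 970 mg/kg, and Akr1b1, aldose reductase, had 0.01 (-0.17 to 0.20). Akr1d1, the 5β-reductase of bile acid synthesis, had 0.03 (-0.11 to 0.17). Akr1c14, a hydroxysteroid dehydrogenase, had 3 probe sets that lay below 0 at each of the 5 doses. They lay between -0.10 and -0.13 at 970 mg/kg and between -0.09 and -0.14 at 97.1 mg/kg. All doses were set against the same vehicle livers, so these signs are not separate results. Akr1c15 had 6.90, 7.16 and 7.29 at 970 mg/kg and 7.20, 7.29 and 7.47 in vehicle, with 4 of 6 dosed livers below every vehicle liver and a log2 fold change of -0.18 (-0.37 to 0.00; limma adjusted p = 0.966). Among the Nrf2 targets, Akr1b8 lay below the array median and had 3.59, 3.89 and 4.09 at 970 mg/kg and 3.44, 3.71 and 4.17 in vehicle, so all dosed livers were inside the vehicle range. Paralogs of Akr1c and Ces1 are close in sequence, so a probe set may also bind a relative's transcript, which was not tested.

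The lowest unadjusted p of a member at any single dose was 0.00387, for Ces1d at 9.71 mg/kg. This gene, a carboxylesterase that also hydrolyses stored triglyceride, had 11.64, 12.29 and 12.49 at 9.71 mg/kg and 12.38, 12.58 and 12.71 in vehicle. Its log2 fold change was -0.38 (-0.63 to -0.13; limma adjusted p = 0.967), and -0.27 without replicate 6 of that dose. At 970 mg/kg it was 0.01. Ces1c, a secreted carboxylesterase, had 13.20, 13.37 and 13.53 at 970 mg/kg and 13.17, 13.29 and 13.40 in vehicle at its brighter probe set, a log2 fold change of 0.08 (-0.03 to 0.19), and its dim probe set gave -0.09. Akr7a3, which reduces aflatoxin dialdehyde, averaged 10.61 ± 0.25 at 9.71 mg/kg and 10.88 ± 0.23 in vehicle, with 3 of 6 livers below every vehicle liver and a log2 fold change of -0.27 (limma adjusted p = 0.978), or -0.18 without vehicle replicate 3. At 97.1 and 970 mg/kg its log2 fold change was 0.19 and 0.17. Aldh1a2, which makes retinoic acid, had 5.43, 5.59 and 5.80 at 0.1 mg/kg and 5.62, 5.82 and 6.01 in vehicle, with 3 of 6 dosed livers below every vehicle liver. Its log2 fold change was -0.21 at 0.1 mg/kg (limma adjusted p = 0.999), 0.18 at 97.1 mg/kg (adjusted p = 0.904) and 0.03 at 970 mg/kg. Aldh18a1 averaged 5.68 ± 0.27 at 0.1 mg/kg and 6.06 ± 0.45 in vehicle, a log2 fold change of -0.37, or -0.23 without vehicle replicate 4.

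The 4 members with an unadjusted p under 0.05 for the slope over dose steps had small slopes. Aldh1a2 had 0.040 log2 units per step, Aldh3b1, which oxidises lipid aldehydes, -0.047, Akr1c15 -0.031 and 1 probe set of Akr1c14 -0.024. Aldh3b1 had 5.43, 5.62 and 5.84 at 970 mg/kg and 5.66, 5.76 and 6.24 in vehicle, with 3 of 6 dosed livers below every vehicle liver. The log2 fold change of Aldh3b1 was -0.23 (-0.48 to 0.03; limma adjusted p = 0.966).

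**Figure D3:**
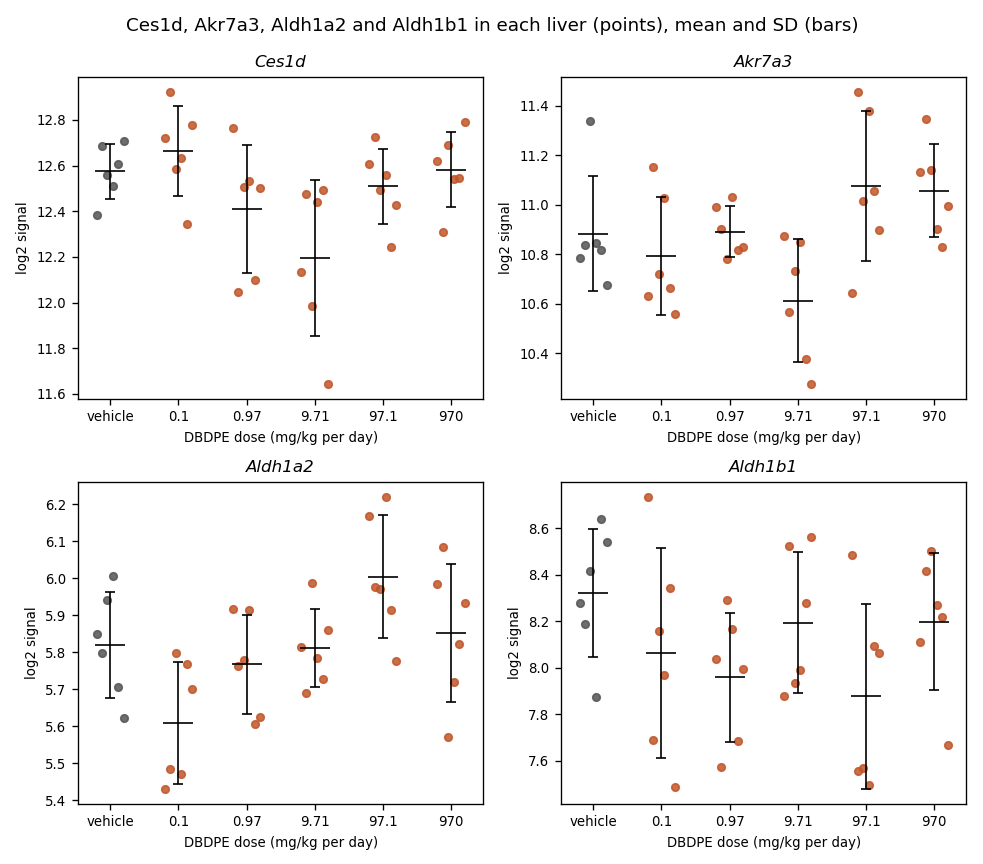
Log2 signal of Ces1d, Akr7a3, Aldh1a2 and Aldh1b1 in every liver by DBDPE dose, with vehicle at the left; bars are the mean and SD (n = 6). Ces1d is lowest at 9.71 mg/kg (12.20 against 12.58 in vehicle) and averages 12.58 at 970 mg/kg.

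Some members varied widely between livers of the same dose. Within groups, 9 member probe sets (16.4%) had an SD above 0.254, the 95th percentile over all probe sets. Ephx2, the soluble epoxide hydrolase, was the widest: 4 of the 36 livers had levels of 8.57 to 8.99, and the other 32 had 5.68 to 6.39, with a gap of 2.18. The 4 were replicates 4 and 5 at 970 mg/kg (8.94 and 8.99), replicate 5 at 9.71 mg/kg (8.57) and replicate 5 of vehicle (8.96). Both dosed and vehicle livers were thus among them. Ephx2 averaged 7.00 ± 1.54 at 970 mg/kg and 6.52 ± 1.22 in vehicle, with medians of 6.20 at 970 mg/kg and 6.18 in vehicle. Its log2 fold change of 0.47 (-0.53 to 1.48) became 0.07 without replicate 5 of 970 mg/kg and 0.96 without vehicle replicate 5. At 97.1 mg/kg it was -0.65, or -0.16 without vehicle replicate 5.

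Akr1b7, a reductase related to aldose reductase, had 2.99, 3.69 and 6.30 at 9.71 mg/kg and 2.90, 3.19 and 3.94 in vehicle. Its log2 fold change was 0.81 (0.04 to 1.57; limma adjusted p = 0.978), or 0.36 without replicate 6 of that dose. Adh4 had 6.74, 7.11 and 9.05 at 9.71 mg/kg and 6.58, 7.17 and 7.79 in vehicle, so 1 liver set the upper end. Akr1c1 had 6.32, 7.67 and 7.91 at 970 mg/kg and 6.40, 7.21 and 8.12 in vehicle, a log2 fold change of 0.19 (-0.35 to 0.73). Akr1c1 gave 0.01 without vehicle replicate 4 and 0.42 without replicate 4 of 970 mg/kg. The groups overlapped for all 4 genes at every dose.

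**Figure D4:**
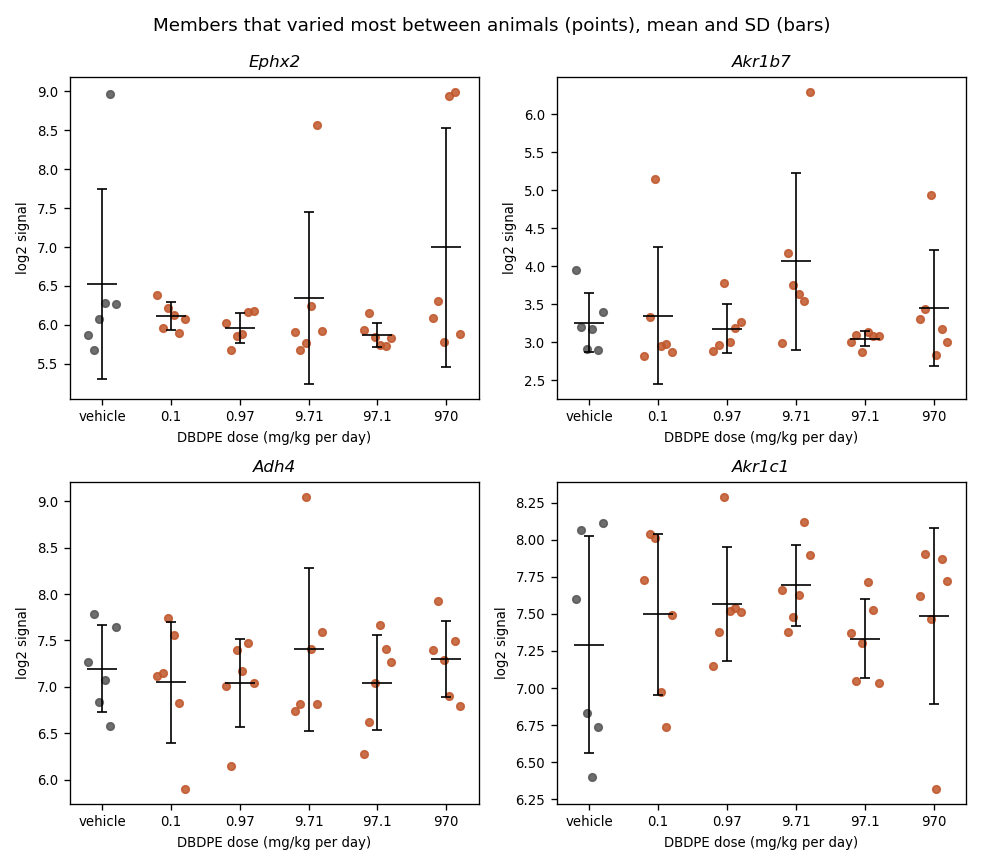
Log2 signal of Ephx2, Akr1b7, Adh4 and Akr1c1 in every liver by DBDPE dose, with vehicle at the left; bars are the mean and SD (n = 6). Ephx2 shows 4 livers at 8.57 to 8.99, of which 2 received 970 mg/kg, 1 received 9.71 mg/kg and 1 vehicle, above 32 livers at 5.68 to 6.39. Akr1b7 and Adh4 each have 1 liver far above the rest, at 6.30 and 9.05.

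Adh1c, Adh4, Adh7 and Aldh1a1 tended to deviate together in single livers. Each liver's deviation from its group mean was compared for 18 gene pairs, chosen after the data were seen, over the 36 samples. Adh4 and Aldh1a1 gave Pearson's r = 0.80 and Spearman's rho = 0.87 (permutation p = 1e-05 for each, the smallest it can give, and 9e-05 adjusted over the 18). Without the 2 samples farthest in Adh4, r was 0.82, and within the 6 groups it ran from 0.60 to 0.97. Among 31041 other probe sets, Aldh1a1 ranked 2nd in its correlation with Adh4. Adh1c and Adh7, a retinol-oxidising enzyme, gave r = 0.73 and rho = 0.71 (permutation p = 9e-05 and 0.00036, adjusted), with r of 0.70 without the 2 farthest and above 0 in 6 of 6 groups. Ces2c and Ephx1 gave r = 0.54 and rho = 0.56 (permutation p = 0.000495 and 0.00207, adjusted), with r of 0.57 without the 2 farthest and above 0 in 6 of 6 groups. Ephx1 ranked 101st among probe sets in correlation with Ces2c, and Ces2c 39th in correlation with Ephx1. All 6 pairs among Adh1c, Adh4, Adh7 and Aldh1a1 passed the adjusted threshold for both measures, and Aldh2 passed it with none of its 5 partners. Aldh1b1 gave r = 0.06 with Adh4 and 0.29 with Adh7, which did not pass. Correlation with the beta-actin difference was -0.03 for Adh4, 0.14 for Aldh1a1, 0.003 for Adh1c, 0.15 for Adh7, -0.07 for Ces2c and -0.36 for Ephx1.

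**Figure D5:**
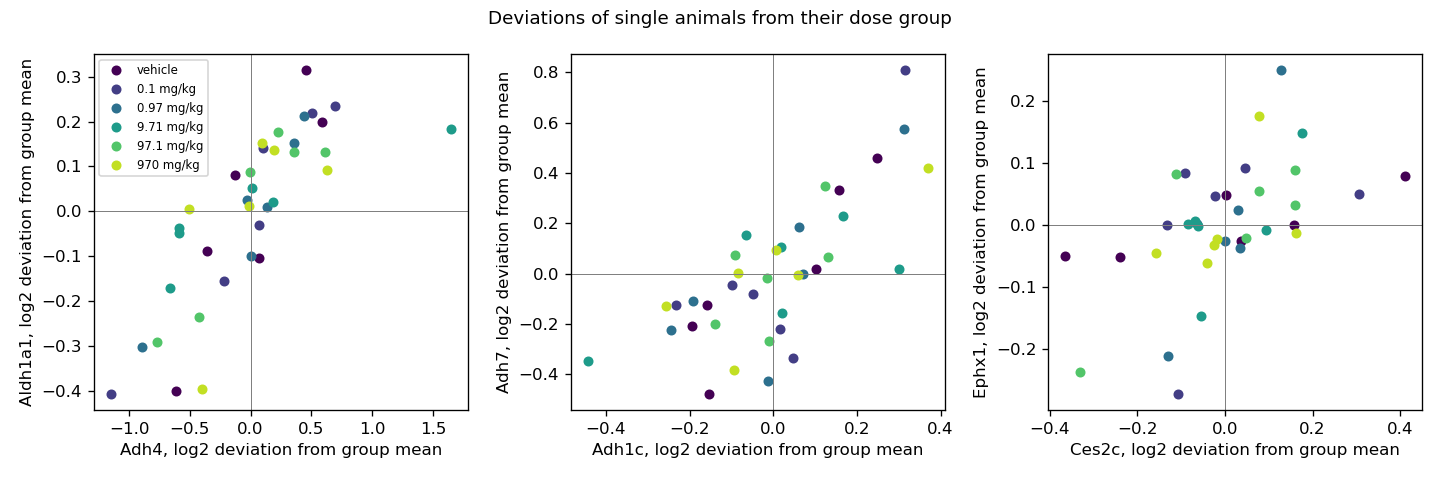
Deviation of each liver from its dose-group mean, in log2 units, for Adh4 and Aldh1a1, Adh1c and Adh7, and Ces2c and Ephx1, with each point 1 of 36 livers coloured by group. Points run from lower left to upper right in the 3 panels, with r of 0.80, 0.73 and 0.54, and groups intermix.

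Other enzymes of drug and carbonyl metabolism, listed from general knowledge, gave 31 of 33 measured genes. At 970 mg/kg their median log2 fold change was 0.04 and 22 of 31 were positive, against 48.1% of all probe sets. The lowest dose, 0.1 mg/kg, had the same median of 0.04, with 24 of 31 positive, against 49.6% of all probe sets. Positive counts were 14 at 0.97 mg/kg, 15 at 9.71 mg/kg and 18 at 97.1 mg/kg. Limma's adjusted threshold was passed by 0 at 970 mg/kg, with 2 at an unadjusted p under 0.05 (against 4.87% of all probe sets). Those 2 were Cyb5a, cytochrome b5, at 0.17 (limma adjusted p = 0.327), and Cbr4, a carbonyl reductase, at 0.10. Nqo1 is a quinone reductase and a target of both Nrf2 and the aryl hydrocarbon receptor. It had 0.68 at 970 mg/kg (-0.02 to 1.38, limma adjusted p = 0.966) and 0.15 at 97.1 mg/kg. Its values at 9.71, 0.97 and 0.1 mg/kg were -0.29, -0.31 and -0.06. Aldh3a1, left out by the rule, had -0.08 (-0.23 to 0.08) at 970 mg/kg. It was dim, averaging 3.35 at that dose and 3.42 in vehicle, below the array medians.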

How the data were processed

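The authors' deposited log2 values, 1 per probe set and array, were made with RMA and affy per the submitters' processing notes; their versions are not given in the sources used here. RMA as a method corrects background, quantile-normalizes and summarises probes, and can compress differences of dim probe sets. Of 31099 probe sets, 57 controls were left out. Genes come from the platform annotation (20826 probe sets name 1 gene, 436 several, 9780 none). A linear model of the 36 samples gave each dose against vehicle, fitted by lmFit and eBayes (limma 3.58.1, R 4.3.3), with Benjamini-Hochberg adjustment over 31042 probe sets and no low-value filter. Sample numbers were not used as pairs. Alternatives were other scalings, weights, priors and filters, probe sets averaged per gene, a beta-actin covariate, a replicate block, dose in mg/kg, 12 samples compared alone, and each sample left out. On simulated data for 970 mg/kg against vehicle, limma recovered 28% of 1.2-fold, 98% of 1.5-fold and 100% of 2-fold changes. There were 7 false calls among 31042 probe sets. The simulation changed 50 probe sets at each fold size together, which loosens the Benjamini-Hochberg cut-off. In the real data 2 probe sets passed at 970 mg/kg, so recovery of a lone changed member may be lower. Genes were named as markers or by smallest p per direction and comparison, largest SD, highest and lowest level per family, and role lists. Members and lists were chosen with earlier results of these data known. Arrays have no read depth; 6 per group limit precision.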

Additional observations from a re-analysis of the deposited data

Results flagged for a closer look

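Values of single livers that stood apart from the other 5 of their group by Dixon's test at 95% came to 16 of 204 groups tested, where chance gives about 1 in 20, or 10.2. Of the 34 genes tested, 5 had been named for a large SD, and these gave 9 of the 16 in 30 groups. For Akr1d1, 1 of these 5, the large SD (0.37) was of a probe set other than the one tested. Its tested probe set had an SD of 0.12 and no such value. The genes not named for SD gave 7 in 174 groups, where chance gives 8.7. For Ephx2 these were replicate 5 at 9.71 mg/kg (log2 level 8.57) and replicate 5 of vehicle (8.96). For Akr1b7 they were replicate 3 at 0.1 mg/kg (5.15), replicate 6 at 9.71 mg/kg (6.3) and replicate 3 at 970 mg/kg (4.94). For Ephx1 they were replicate 6 at 0.1 mg/kg (12.4), replicate 1 at 97.1 mg/kg (12.51) and replicate 2 at 970 mg/kg (12.96). Adh4 had replicate 2 at 0.97 mg/kg (6.14) and replicate 3 at 9.71 mg/kg (9.05). Akr1c1 had replicate 3 at 0.97 mg/kg (8.29) and replicate 4 at 970 mg/kg (6.32). Adh7 had replicate 3 at 0.1 mg/kg (6.73), Aldh6a1 replicate 3 at 97.1 mg/kg (12.3), Aldh1a1 replicate 4 at 970 mg/kg (11.52) and Akr7a3 replicate 3 of vehicle (11.34).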

How the results depend on the processing

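Counts of members called were recomputed under 11 other settings and with each of 36 samples left out, in 321 alternatives, and were 0 in each, with a lowest adjusted p of 0.682. The median log2 fold change at 970 mg/kg ranged from -0.0004 to 0.0216 over the settings and from -0.0062 to 0.0286 with 1 sample left out. Of 34 named genes, none of which was called, 6 changed sign at 970 mg/kg under a setting and 10 on leaving out a sample. With the replicate number as a block, the count called was 0 in every comparison. Deviations of same-numbered samples had a mean r of 0.0048 over 90 pairs, from -0.25 to 0.26, with 15 over 0.1, and 6 of 36 samples correlated best with their own number. On simulated data, 1.2-fold differences were recovered for 28% of probe sets at 970 mg/kg against vehicle and for 52% by the slope over dose steps. With 50 probe sets changed at each fold size together, these rates may be too high for a lone change.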

Other observations

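Adh1c and Adh4 also deviated together over the 36 livers, with r = 0.71 and rho = 0.73 (permutation p = 0.00036 and 9e-05, adjusted over 18 pairs). Adh7 and Aldh1a1 gave r = 0.60 and rho = 0.58 (permutation p = 0.00282 and 0.00276, adjusted). Adh1c and Aldh1b1 gave r = 0.40 and rho = 0.46 (permutation p = 0.0365 and 0.0179, adjusted), and r was 0.33 without the 2 farthest samples. Aldh1a1 and Ephx1 gave r = 0.44 and rho = 0.37 (permutation p = 0.0267 and 0.0581, adjusted), and r was 0.32 without the 2 farthest. Aldh1a1 and Aldh1b1 gave r = -0.02 and rho = -0.02 (permutation p = 0.915 and 0.904, adjusted). These pairs were chosen after the data were seen. At 970 mg/kg the steroid dehydrogenase Hsd17b2 stood at -0.42 (log2 fold change over vehicle, with -0.92 to 0.09 as its 95% interval), and Xdh, xanthine dehydrogenase, at 0.19 (-0.004 to 0.38). At 0.1, 0.97, 9.71 and 97.1 mg/kg, Hsd17b2 had 0.10, -0.45, -0.11 and -0.34. Xdh had 0.14, 0.16, 0.14 and 0.08 at these doses. The lowest Hsd17b2 value was thus at 0.97 mg/kg, and Xdh was above 0 at every dose. Every dose was set against the same vehicle livers, so these signs are not separate results. Neither gene passed limma's adjusted threshold at any dose.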
